A study of Homo sapiens with 12 samples.

Results

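The integrated stress response regulators were examined in the RNA of human K562 cells and of their imatinib-resistant derivative, with and without lycorine. The group held 10 genes, ATF4, DDIT3, ATF3, ATF5, TRIB3, CHAC1, SESN2, CEBPB, CEBPG and PPP1R15A, chosen by symbol from the 19447 symbols of the gene count table. All 10 were found in the table, and all 10 passed the filter on low counts in every comparison. K562 is a chronic myeloid leukemia cell line that carries the BCR-ABL fusion, and imatinib (IM) is an inhibitor of its kinase. There were 4 groups of 3 libraries, namely untreated K562, K562+L given 6 µM lycorine (an alkaloid of Amaryllidaceae plants), K562/IM, and a group labelled K562/IM+L given 6 µM lycorine. K562/IM is 1 line raised by stepwise exposure to IM and then kept in the drug, so that K562/IM and K562 differ in more than a single agent. The exposure time before sequencing was not given in the sources used here, and nothing states that the 3 libraries of a group came from separate cultures. The p-values therefore measure the spread between these libraries, which may be technical.

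The integrated stress response is the program by which kinases that sense unfolded protein, amino acid shortage, double-stranded RNA or haem shortage phosphorylate the translation factor eIF2α. Phosphorylated eIF2α lowers protein synthesis in general and favors translation of a few messages, ATF4 among them. ATF4 then switches on genes for amino acid synthesis, uptake and tRNA charging together with further regulators, and PPP1R15A (GADD34) closes the loop by directing a phosphatase to eIF2α. Because ATF4 is controlled largely at translation, counts of its RNA measure neither ATF4 protein nor eIF2α phosphorylation. In bulk RNA, moreover, fewer cells of a type and less RNA per cell cannot be told apart.

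Total counts per library ran from 75093844 to 107344598. A set of 9 markers of K562 erythroid identity (GATA1, TAL1, LMO2, KLF1, HBG1, HBG2, HBE1, HBZ and TFRC) each reached a mean of at least 1 CPM in all 4 groups, where CPM are counts scaled to library size after TMM over the 12 libraries. Their summed level was 6120.2 to 8534 CPM in K562, 4100.3 to 4717 in K562+L, 2803 to 3043 in K562/IM and 32051 to 45210.3 for the group labelled K562/IM+L. HBG1 and HBG2, near-identical gamma globin genes whose reads may be split between them, and HBZ carried most of the sum in that group, with means of 8516 ± 1621, 16991 ± 2728 and 11126 ± 2590.0 CPM, whereas GATA1, the erythroid master regulator, had means of 229.7 ± 37.7 in K562, 206 ± 23.1 in K562+L, 196 ± 2.41 in K562/IM and 249.8 ± 32.6 in the labelled group. The order of HBE1 (embryonic epsilon globin) was another, with 97.6 ± 18.0 CPM in K562, 44.4 ± 4.99 in K562+L, 544 ± 4.89 in K562/IM and 1033 ± 169 in the labelled group (SD, n = 3 each). The sum of 4 lymphoid markers was 23.8 to 25.5 CPM in K562/IM and at most 3.50 in the other groups, and that of 4 fibroblast markers was 19.3 to 24.5 CPM in K562/IM and at most 1.37 elsewhere. In K562/IM, 2 of the 4 lymphoid and 3 of the 4 fibroblast markers reached 1 CPM and 1 of each list was at 0. The sum of 4 granulocyte and monocyte markers, of which LYZ alone reached 1 CPM, was 109 to 115 CPM in K562, 108 to 127 in K562+L, 162 to 171 in K562/IM and 74.97 to 80.04 in the labelled group. That of 3 epithelial markers, of which EPCAM alone reached 1 CPM, was 123 to 132, 106 to 119, 42.9 to 48.1 and 84.2 to 104 CPM in the same order. The part of all these marker levels in the results below was not tested. Sample labels and the figures of the study number the K562/IM+L group differently. It is therefore called the labelled group, and every direction drawn from it rests on its label. ABCB1, the drug efflux pump, had a mean of 23.6 ± 2.07 CPM in K562/IM and of 0.752 ± 0.290 in the labelled group (SD, n = 3 each). Its means were 1.76 ± 0.093 CPM in K562 and 4.28 ± 0.759 in K562+L, so that the labelled group was lowest. The ABCB1 level by itself does not decide the label. CEBPB was far lower in 1 library of each of 3 groups, K562+L replicate 1, K562/IM replicate 3 and labelled K562/IM+L replicate 2, and is described last among the transcription factors.

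The regulators did not move as a block. In K562+L against K562, 3 of 10 were higher (DDIT3, ATF3 and PPP1R15A) and 5 were lower (ATF4, ATF5, TRIB3, CHAC1 and SESN2) by edgeR's quasi-likelihood test at a Benjamini-Hochberg adjusted p under 0.05, and the median change of the 10 was -0.41 on the log2 scale. Among all 12927 genes tested in that comparison, 18.2% were called higher and 19.0% lower. K562/IM against K562 had 3 of 10 higher (DDIT3, SESN2 and PPP1R15A) and 3 lower (ATF4, ATF5 and TRIB3), where 30.1% of 13406 genes were higher and 27.1% lower. With the labelled group set against K562/IM, 5 of 10 were higher (ATF4, ATF3, ATF5, CHAC1 and PPP1R15A) and 0 lower by edgeR, where 33.2% of 13727 genes were higher and 33.6% lower. The count of lower regulators was also 0 at an unadjusted p under 0.05 and 0 by DESeq2. Against K562, the labelled group had 3 of 10 higher (DDIT3, CHAC1 and PPP1R15A) and 1 lower (TRIB3), where 28.2% of 13307 genes were higher and 27.8% lower. The genes are described singly below. K562 enters 3 of these comparisons, and the K562/IM libraries enter 2.

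**Figure D1:**
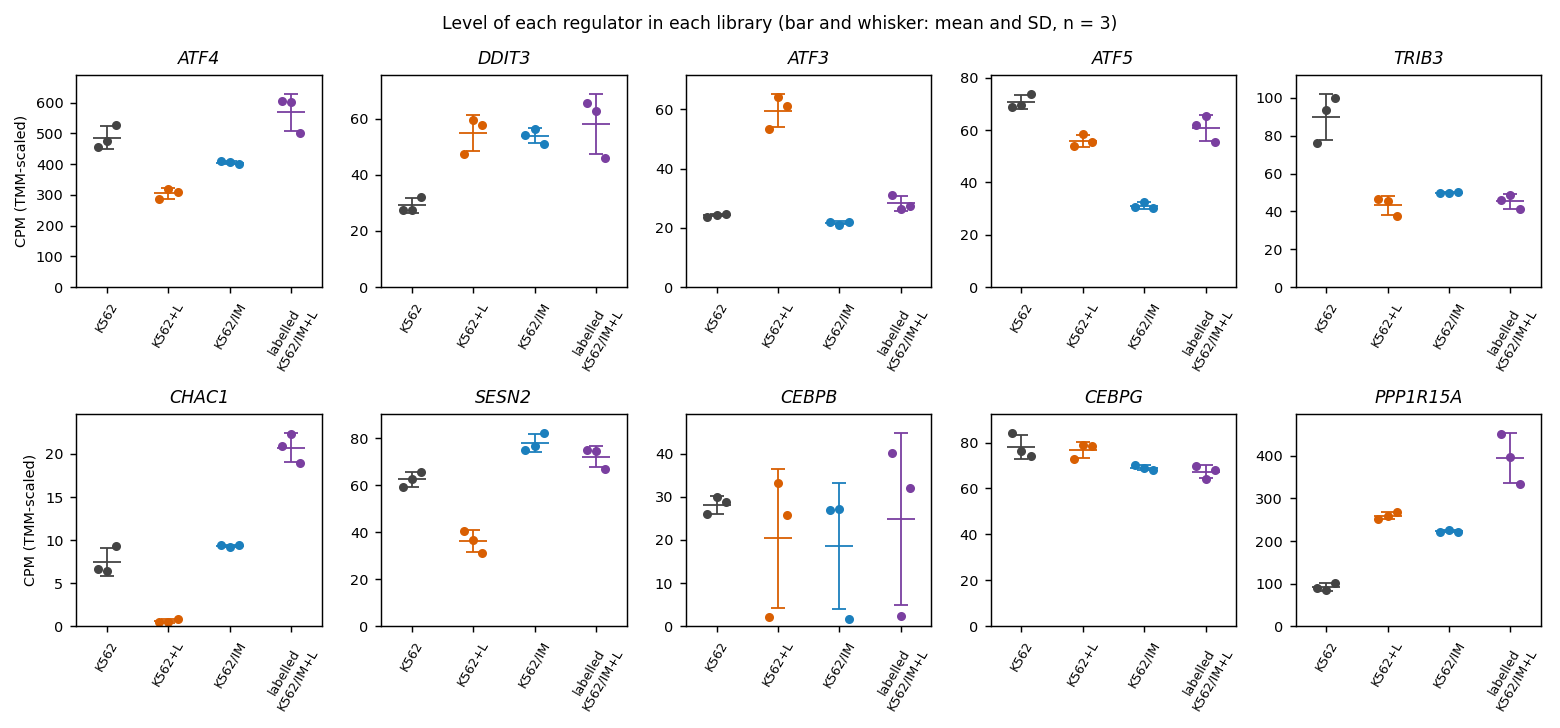
Level of the 10 regulators in each library, in CPM after TMM scaling (vertical axis, from 0), by group (horizontal axis); points are the 3 libraries of a group and the bar and whisker their mean and SD. PPP1R15A stood at 85.0 to 101 CPM in K562 and at 334.5 to 452 in the labelled group, and CEBPB has 1 library near 2 CPM in 3 of the groups.

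**Figure D2:**
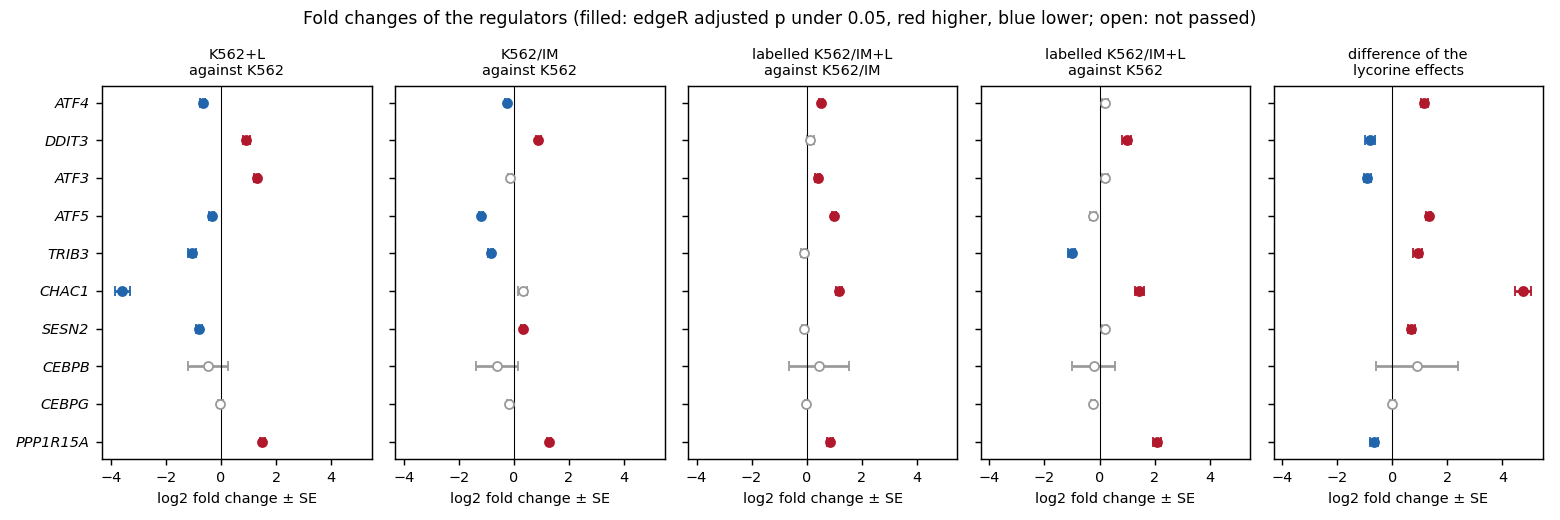
Log2 fold change ± SE of each regulator (horizontal axis) in the 4 pairwise comparisons and in the difference of the lycorine effects, labelled K562/IM+L over K562/IM minus K562+L over K562. Filled points passed an adjusted p under 0.05 in edgeR's quasi-likelihood test (red higher, blue lower) and open points did not; CHAC1 lies at -3.59 in K562+L and at 1.17 in the labelled group against K562/IM.

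ATF4, the central factor of the response, lies on chromosome 22 of GRCh38 from 39519695 to 39522685 on the plus strand (GENCODE 29). It was the most abundant of the 10 per length, with 193 CPM per kilobase of exon in K562, rank 281 of 19029 genes with a length. The 3 K562 libraries held 456, 475 and 527 CPM, the K562+L libraries 286, 320 and 311, the K562/IM libraries 409, 407 and 399, and the labelled K562/IM+L libraries 604, 602 and 499.5. ATF4 was thus lowest in K562+L, followed by K562/IM and K562 without overlap between neighbors, whereas K562 and the labelled group overlapped. In K562+L the log2 fold change against K562 was -0.67 (SE 0.087, adjusted p = 0.00138), and in the labelled group against K562/IM it was 0.52 (SE 0.085, adjusted p = 0.00120). K562/IM was lower than K562 by a smaller amount (log2 fold change -0.26, SE 0.073, adjusted p = 0.0161). This call was lost when any 1 of the 3 K562/IM libraries was left out, with adjusted p-values of 0.0567, 0.0520 and 0.0646 (0.00309 to 0.0646 over 15 alternatives). Against K562 the labelled group gave 0.21 (SE 0.113, adjusted p = 0.154), which passed without labelled K562/IM+L replicate 3 (0.30, adjusted p = 0.0295, with 0.0291 to 0.404 over 15 alternatives).

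DDIT3 (CHOP), a bZIP factor linked to cell death under prolonged stress, lies on chromosome 12 from 57516588 to 57521737 on the minus strand. K562 libraries held 27.5, 27.6 and 32.1 CPM, and every other library held more, with 47.4, 59.4 and 57.7 in K562+L, 54.1, 56.3 and 51.0 in K562/IM and 65.6, 62.9 and 45.8 in the labelled group. The last 3 groups overlapped each other, and only K562 stood apart. Against K562 the log2 fold change was 0.92 in K562+L (SE 0.117, adjusted p = 0.00135), 0.89 in K562/IM (SE 0.090, adjusted p = 1.36e-04) and 0.98 in the labelled group (SE 0.158, adjusted p = 0.00165). The labelled group did not pass against K562/IM (log2 fold change 0.14, SE 0.132, adjusted p = 0.389), and did so without labelled K562/IM+L replicate 3 (0.28, adjusted p = 0.00421, with 0.00421 to 0.858 over 15 alternatives), the library lowest in DDIT3 within its group. An exon of DDIT3 overlaps MARS1 on the other strand by 62 bases and AC022506.1 on the same strand by 105, and strand use in the counting was not given. MARS1, methionyl-tRNA synthetase, was lower where DDIT3 was higher, with a log2 fold change of -0.50 in K562+L and -0.24 in K562/IM.

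ATF3, an immediate stress-induced repressor and activator of the same family, lies on chromosome 1 from 212565334 to 212620777 on the plus strand. It rose in K562+L, where the libraries held 53.2, 64.2 and 61.2 CPM against 23.8, 24.5 and 24.5 in K562. K562/IM held 22.1, 21.1 and 22.0 CPM, and the labelled group 31.1, 26.3 and 27.4. No neighbors in the order K562/IM, K562, labelled K562/IM+L, K562+L overlapped, although the first of these gaps was narrow. Its log2 fold change was 1.29 in K562+L against K562 (SE 0.097, adjusted p = 1.73e-04) and 0.41 in the labelled group against K562/IM (SE 0.088, adjusted p = 0.00456). K562/IM against K562 gave -0.16 (SE 0.073, adjusted p = 0.0974), which passed only without K562 replicate 1 (-0.21, adjusted p = 0.0317, with 0.0317 to 0.236 over 15 alternatives).

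ATF5, which like ATF4 is favored when eIF2α is phosphorylated, lies on chromosome 19 from 49928702 to 49933935 on the plus strand. The K562 libraries held 69.0, 69.7 and 73.9 CPM, K562+L 54.1, 58.4 and 55.3, K562/IM 30.5, 32.6 and 30.1, and the labelled group 62.0, 65.3 and 55.5. K562/IM was lowest and overlapped no other group, while K562+L and the labelled group overlapped. ATF5 fell in K562/IM against K562 (log2 fold change -1.19, SE 0.074, adjusted p = 1.12e-05) and rose in the labelled group against K562/IM (1.00, SE 0.081, adjusted p = 3.38e-05). Lycorine in K562 gave -0.34 (SE 0.081, adjusted p = 0.0137), a call lost without K562 replicate 2 (adjusted p = 0.0564), K562+L replicate 1 (0.0556) or K562+L replicate 3 (0.0549), the range over 15 alternatives being 0.00101 to 0.0704. Exons of ATF5 share 563 bases with NUP62 on the opposite strand, so that reads there cannot be assigned without strand. NUP62, a nuclear pore protein, had log2 fold changes of 0.27 in K562+L, -0.17 in K562/IM and -0.45 in the labelled group against K562/IM.

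CEBPB and CEBPG are bZIP partners with which ATF4 pairs at composite DNA sites. CEBPG, on chromosome 19 from 33373330 to 33382686 on the plus strand, varied least of the 10. It stood at 78.1 ± 5.26 CPM in K562, 76.7 ± 3.51 in K562+L, 69.0 ± 1.08 in K562/IM and 67.3 ± 2.87 in the labelled group (SD, n = 3 each). None of its 4 pairwise comparisons passed, and the adjusted p was 0.0714 in K562/IM (log2 fold change -0.18, SE 0.075) and 0.0502 in the labelled group against K562 (-0.23, SE 0.086). Without K562 replicate 3 the latter was 0.0494, and the former was 0.0267 without that library and 0.0485 without K562 replicate 1. Over 15 alternatives they ran from 0.0177 to 0.419 and from 0.0208 to 0.188. CEBPB, a single-exon gene on chromosome 20 from 50190734 to 50192689, had raw counts of 2110, 2515 and 2231 in K562. Counts were 186, 2869 and 2687 in K562+L, 2246, 2609 and 180 in K562/IM, and 3194, 169 and 3007 in the labelled group. With 0.5 CPM added to each level, the highest library exceeded the lowest by 12.7-fold in K562+L, 12.7-fold in K562/IM and 14.2-fold in the labelled group. The addition makes these folds smaller than those of the levels themselves. On that scale the largest ratio of any other regulator was 1.43. Without the addition CHAC1 spread more widely in K562+L, from 0.462 to 0.845 CPM. Genes with a mean of at least 5 CPM numbered 10194. Of these, 0 others had the 3 libraries low in CEBPB 2-fold or more below every remaining library of the 4 groups, again with 0.5 CPM added. A gene low in these libraries only against the rest of their own groups would not be counted. No comparison of CEBPB passed, with a log2 fold change of -0.47 (SE 0.716, adjusted p = 0.634) in K562+L. With these 3 libraries left out, a choice made after the data were seen, it was 0.06 in K562+L (SE 0.141, adjusted p = 0.774), -0.06 in K562/IM (SE 0.103, adjusted p = 0.659) and 0.45 in the labelled group against K562/IM (SE 0.138, adjusted p = 0.0410, with 0.0410 to 0.965 over 15 alternatives). CEBPB shares 231 exonic bases with its antisense gene CEBPB-AS1.

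**Figure D3:**
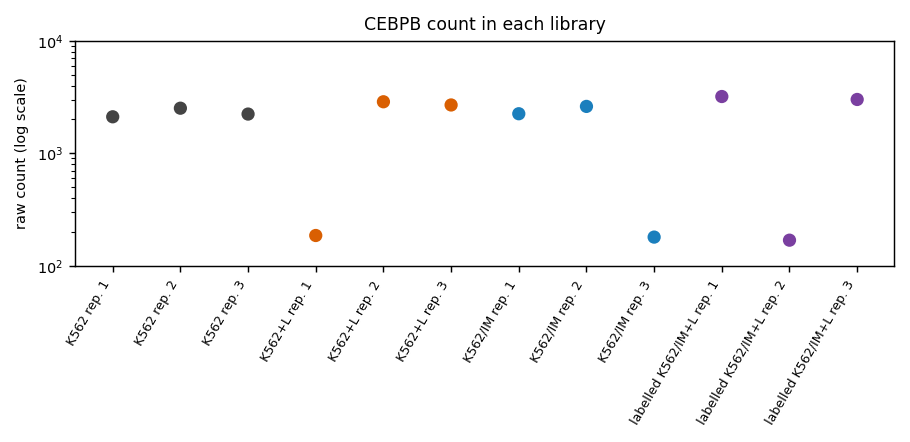
Raw count of CEBPB in each of the 12 libraries (vertical axis, log scale). Counts of 169 to 186 in 3 libraries, 1 of each group but K562, lie below counts of 2110 to 3194 in the other 9.

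Downstream genes of ATF4 followed separate courses. CHAC1, an enzyme that degrades glutathione, lies on chromosome 15 from 40952962 to 40956519 and showed the steepest single change of the 10. Its raw counts were 540, 542 and 728 in K562 and 47, 40 and 88 in K562+L, or 6.63, 6.46 and 9.37 CPM against 0.543, 0.462 and 0.845. The K562/IM libraries held 9.43, 9.24 and 9.43 CPM, and the labelled group 21.0, 22.3 and 19.0. K562+L lay below and the labelled group above all others, and K562 and K562/IM overlapped. In K562+L the log2 fold change was -3.59 (SE 0.278, adjusted p = 1.85e-04), a level 12.1-fold lower than in K562. The labelled group was higher than K562/IM (1.17, SE 0.093, adjusted p = 3.01e-05) and higher than K562 (1.45, SE 0.174, adjusted p = 4.08e-04). K562/IM against K562 gave 0.32 (SE 0.157, adjusted p = 0.114), which passed without K562 replicate 3 (0.51, adjusted p = 0.00553, with 0.00553 to 0.304 over 15 alternatives). Low counts in the table piled up near multiples of 4, since 67.9% of the 23289 values from 1 to 25 were a multiple of 4 or 1 above it, against 52% of the whole numbers between these limits, and counting noise may thus be larger than counts of 40 to 88 would give.

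TRIB3, a pseudokinase that binds ATF4 and Akt, lies on chromosome 20 from 362835 to 397559. K562 libraries held 76.1, 93.7 and 99.8 CPM, and all 9 others held less, with 46.5, 45.6 and 37.4 in K562+L, 49.7, 49.8 and 50.3 in K562/IM and 46.3, 48.9 and 41.0 in the labelled group. K562 overlapped no other group, and K562+L overlapped the labelled group. TRIB3 fell against K562 in K562+L (log2 fold change -1.06, SE 0.133, adjusted p = 0.00122), in K562/IM (-0.85, SE 0.106, adjusted p = 3.64e-04) and in the labelled group (-1.0, SE 0.129, adjusted p = 5.75e-04). The labelled group against K562/IM gave -0.11 (SE 0.079, adjusted p = 0.242). SESN2, a leucine-sensing inhibitor of mTORC1 on chromosome 1 from 28259527 to 28282491, held 59.3, 62.9 and 65.7 CPM in K562 and 40.6, 36.7 and 31.3 in K562+L. It was higher in K562/IM, with 74.9, 76.6 and 82.3 CPM, and the labelled group held 75.1, 74.6 and 67.1. Only K562/IM and the labelled group overlapped. SESN2 fell in K562+L (-0.79, SE 0.112, adjusted p = 0.00197), rose in K562/IM against K562 (0.31, SE 0.075, adjusted p = 0.00826), and gave -0.08 in the labelled group against K562/IM (SE 0.075, adjusted p = 0.360). Against K562 that group gave 0.19 (SE 0.090, adjusted p = 0.112), which passed without labelled K562/IM+L replicate 3 (0.25, adjusted p = 0.0463, with 0.0146 to 0.332 over 15 alternatives).

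PPP1R15A, the stress-induced partner that brings protein phosphatase 1 to eIF2α, lies on chromosome 19 from 48872392 to 48876057. It was higher than in K562 in every other group. The K562 libraries held 90.5, 85.0 and 101 CPM, K562+L 252, 259.6 and 267, K562/IM 220.3, 226 and 222, and the labelled group 452, 396 and 334.5. No groups overlapped, in the order K562, K562/IM, K562+L and labelled group. The log2 fold change against K562 was 1.49 in K562+L (SE 0.091, adjusted p = 7.82e-05), 1.27 in K562/IM (SE 0.082, adjusted p = 1.39e-05) and 2.08 in the labelled group (SE 0.140, adjusted p = 3.36e-05). Against K562/IM the labelled group gave 0.85 (SE 0.107, adjusted p = 3.01e-04). It was the only 1 of the 10 to pass in the same direction in all 4 pairwise comparisons. These share libraries and are not separate tests, and the share of all genes that passed in this way was not computed.

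Ratios within a library do not depend on the scaling between libraries. Per kilobase, PPP1R15A stood at 18.9 to 21.0% of ATF4 in the K562 libraries, 85.8 to 93.3% in K562+L, 56.9 to 58.9% in K562/IM and 69.6 to 79.0% in the labelled group. The ratio of DDIT3 to ATF4 was 11.2 to 11.7% in K562, 31.9 to 35.8% in K562+L, 24.6 to 26.6% in K562/IM and 17.6 to 20.9% in the labelled group. Neither ratio overlapped between any groups. ATF3 was 18.5 to 19.9% of ATF4 in K562+L and 4.33 to 5.47% in the other 3 groups. CHAC1 was 0.176 to 0.332% in K562+L, 1.66 to 2.17% in K562, 2.77 to 2.89% in K562/IM and 4.24 to 4.64% in the labelled group. TRIB3 was 14.5 to 17.1% in K562 and 6.65 to 7.13% in the labelled group. Between them lay K562+L (10.4 to 14.1%) and K562/IM (10.5 to 10.9%), which overlapped.

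**Figure D4:**
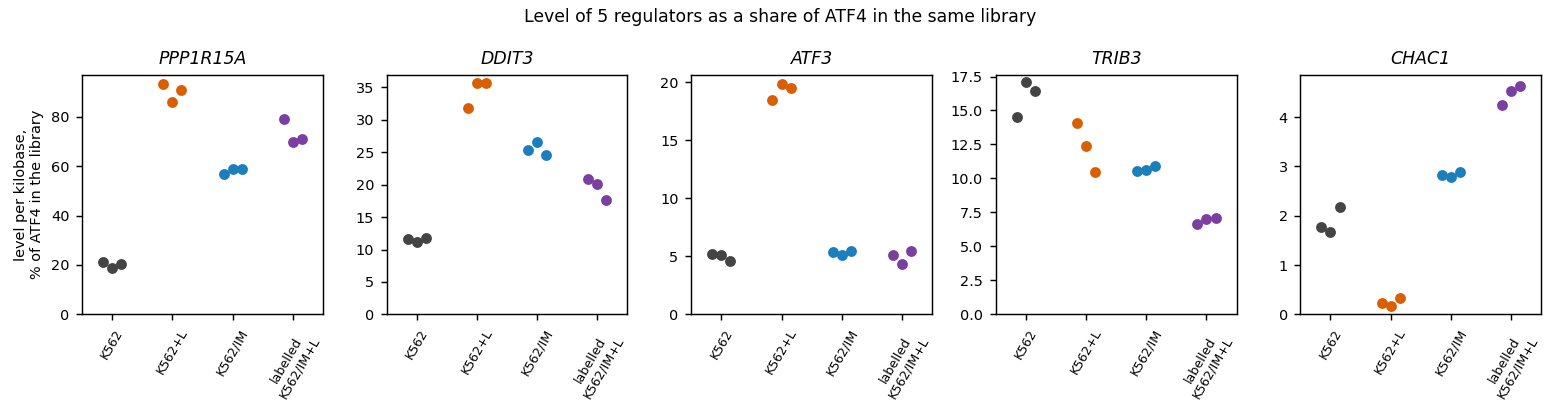
Level per kilobase of 5 regulators as a percentage of the ATF4 level in the same library (vertical axes, each from 0), by group; points are libraries. The PPP1R15A ratio is lowest in K562 (18.9 to 21.0%) and highest in K562+L (85.8 to 93.3%), and the CHAC1 ratio is lowest in K562+L and highest in the labelled group.

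Whether lycorine acted alike in both lines was tested as the difference of its effects, labelled K562/IM+L over K562/IM minus K562+L over K562, in a fit over all 12 libraries. Of the 10 regulators 5 had a more positive effect in the resistant line and 3 a more negative one, where 29.9% of 13995 genes tested had a more positive and 31.7% a more negative effect. CHAC1 differed most, by 4.74 on the log2 scale (SE 0.287, adjusted p = 9.96e-08), since it fell in K562 and rose in the labelled group. ATF5 differed by 1.32 (SE 0.106, adjusted p = 9.70e-07) and ATF4 by 1.16 (SE 0.122, adjusted p = 7.47e-06), likewise with opposite signs in the lines. For TRIB3 (0.92, SE 0.161, adjusted p = 3.82e-04) and SESN2 (0.69, SE 0.133, adjusted p = 8.40e-04) the fall passed in K562 and no change passed in the resistant line. ATF3 (-0.91, SE 0.123, adjusted p = 5.83e-05) and PPP1R15A (-0.66, SE 0.142, adjusted p = 0.00157) rose in both lines and more in K562. DDIT3 differed by -0.80 (SE 0.190, adjusted p = 0.00313). CEBPG differed by -0.00 (SE 0.096, adjusted p = 0.985) and CEBPB by 0.90 (SE 1.49, adjusted p = 0.627), and neither passed.

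Promoter sequence is shown for the 4 regulators in which the search below found a match, because CHAC1, ATF3 and CEBPG hold the same element and moved differently in K562+L. RefSeq windows (GRCh38.p14) were matched for all 10 genes, 19 windows in all, and the 250 bases before each start were searched on both strands. The composite site of ATF4 with C/EBP factors, TGATGNAA, was found in 3 of the 10 genes, and 3.89% of 27305 symbols held it in such a window. The full cyclic AMP response element, TGACGTCA, was found in PPP1R15A alone, and in 2.03% of all symbols. Capitals mark the match, which lay 209 bases before the start in CHAC1 (on the minus strand), 191 in ATF3, 42 in CEBPG and 58 in PPP1R15A. The 30 bases of CHAC1 (chr15:40953251-40953280) lie within an annotated exon, and the stretches of ATF3 (chr1:212565157-212565333), CEBPG (chr19:33373896-33374112) and PPP1R15A (chr19:48872171-48872391) outside annotated exons, all on the plus strand.
CHAC1: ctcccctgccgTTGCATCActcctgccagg
ATF3: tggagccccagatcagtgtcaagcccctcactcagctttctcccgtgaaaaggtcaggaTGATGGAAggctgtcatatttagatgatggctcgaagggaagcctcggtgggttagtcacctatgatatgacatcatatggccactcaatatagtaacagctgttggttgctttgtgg
CEBPG: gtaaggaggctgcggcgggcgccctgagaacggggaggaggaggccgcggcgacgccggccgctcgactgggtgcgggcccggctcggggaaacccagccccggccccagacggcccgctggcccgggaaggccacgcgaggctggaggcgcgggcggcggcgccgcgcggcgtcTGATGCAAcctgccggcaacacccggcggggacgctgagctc
PPP1R15A: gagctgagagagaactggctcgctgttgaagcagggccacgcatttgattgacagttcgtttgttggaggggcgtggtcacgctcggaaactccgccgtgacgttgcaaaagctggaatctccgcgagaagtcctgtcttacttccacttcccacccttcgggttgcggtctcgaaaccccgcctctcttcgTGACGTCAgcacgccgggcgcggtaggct
In K562+L the 3 genes with TGATGNAA had log2 fold changes of -3.59 (CHAC1), 1.29 (ATF3) and -0.03 (CEBPG), of which the first pair passed. A match is a run of letters and no evidence of binding. ATF3 and CEBPG each hold it at 1 of 2 starts.

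The response has further genes outside the 10, described here from lists by role. The 4 eIF2α kinases were all expressed. EIF2AK1 (HRI), the haem-regulated kinase, stood at 319 ± 2.62 CPM in K562, 311 ± 10.5 in K562+L and 326 ± 6.84 in K562/IM (SD, n = 3 each), and the labelled group ranged from 393 to 688. It was higher there than in K562/IM (log2 fold change 0.88, SE 0.203, adjusted p = 0.00618). EIF2AK2 (PKR), the kinase for double-stranded RNA, rose in K562+L (0.61, SE 0.134, adjusted p = 0.0103) and fell in the labelled group against K562/IM (-0.51, SE 0.164, adjusted p = 0.0264). EIF2AK3 (PERK), which senses unfolded protein in the endoplasmic reticulum, and EIF2AK4 (GCN2), which senses uncharged tRNA, were higher in K562/IM than in K562, with log2 fold changes of 0.65 and 0.62 (adjusted p = 0.00328 and 3.04e-04). Both were lower in the labelled group than in K562/IM (-0.47 and -0.50, adjusted p = 0.00364 for both), and in K562+L they gave 0.28 and 0.00 (adjusted p = 0.148 and 0.995). With 6 genes that act on the kinases, 2 of 10 were higher and 0 lower in K562+L (18.2% and 19.0% of all genes). In K562/IM 3 were higher and 1 lower (30.1% and 27.1% of all genes). In the labelled group against K562/IM 3 were higher and 6 lower (33.2% and 33.6% of all genes). The same shares of all genes stand beside the list counts below. OMA1, the mitochondrial protease upstream of HRI, was the 1 of these 10 lower in K562/IM (-1.20, SE 0.094, adjusted p = 3.60e-05). It was higher in the labelled group than in K562/IM (1.13, SE 0.095, adjusted p = 3.90e-05).

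The target of the kinases, EIF2S1 (eIF2α), stood at 251 ± 3.05 CPM in K562, 314 ± 21.1 in K562+L, 155 ± 2.47 in K562/IM and 89.6 ± 3.16 in the labelled group (SD, n = 3 each). No groups overlapped. Of the 8 subunits of eIF2 and of its exchange factor eIF2B, 7 were lower and 0 higher in K562/IM against K562 (median -0.45 on the log2 scale, against 0.04 over all genes). In K562+L, 4 were higher and 2 lower, and in the labelled group against K562/IM 0 were higher by edgeR (1 at an unadjusted p under 0.05 and 1 by DESeq2) and 2 lower. Of the 4 other genes of the eIF2α phosphatase, PPP1R15B (the constitutive counterpart of PPP1R15A) and 3 catalytic subunits, 1 was higher and 0 lower in K562+L. PPP1R15B itself did not pass in K562+L (log2 fold change -0.06), and passed in K562/IM (0.32) and in the labelled group against K562/IM (-0.28).

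Target genes of ATF4 outside the 10 were lower in K562+L more often than higher. Of the 40 listed, 38 could be tested, and 26 were lower and 2 higher (median log2 fold change -0.61, against -0.00 over all genes). PSAT1 of serine synthesis fell from 179 ± 7.71 to 50.4 ± 2.22 CPM (SD, n = 3 each), ASNS (asparagine synthetase) from 289 ± 9.59 to 81.7 ± 7.12, and GPT2, a mitochondrial alanine transaminase, had a log2 fold change of -1.40. The 2 that were higher were SLC3A2, the heavy chain of amino acid exchangers (0.96), and GDF15, a stress cytokine (0.77). In K562/IM against K562, 22 of 37 were lower and 5 higher (median -0.39 against 0.04), and GDF15 was again among the higher (1.06), whereas the glycine transporter SLC6A9 was the lower gene of smallest p (-1.91). In the labelled group against K562/IM, 9 of 37 were higher and 15 lower (median -0.03 against -0.01), and 14 were higher without labelled K562/IM+L replicate 3. SLC6A9 (2.88) and DDIT4, an inhibitor of mTORC1 (1.21), were higher and SLC7A5, a leucine transporter (-1.24), and PSAT1 (-1.03) lower. Against K562 the labelled group had 5 of 37 higher and 24 lower (median -0.49 against 0.02), where 28.2% of all genes were higher and 27.8% lower. The difference of the lycorine effects was positive for 21 of 38 and negative for 8 (median 0.41 against -0.02), with SLC6A9 at 3.68, DDIT4 at 2.78 and ASNS at 2.41. Of all genes, 29.9% had a more positive and 31.7% a more negative effect.

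**Figure D5:**
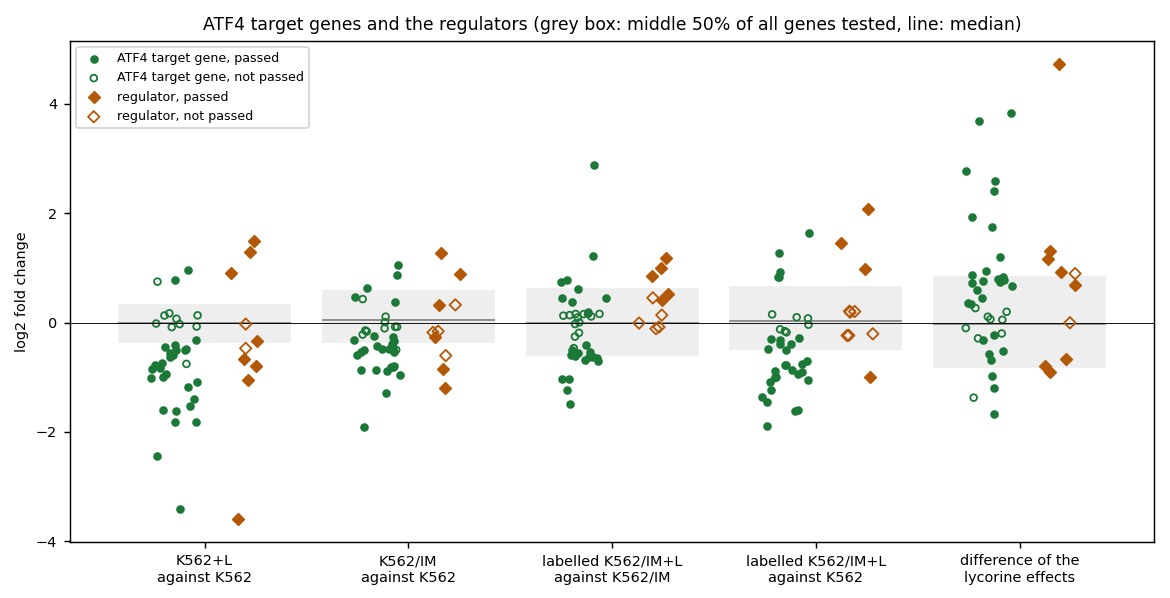
Log2 fold change (vertical axis) of the listed ATF4 target genes outside the 10 (circles) and of the 10 regulators (diamonds) in each comparison, filled where the adjusted p was under 0.05; the grey box spans the middle 50% of all genes tested and the line is their median. In K562+L against K562 the target genes had a median of -0.61, and in the labelled group against K562/IM of -0.03.

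DDIT3 target genes, 8 of which could be tested, showed no common direction. In K562+L 2 were higher and 3 lower, where 18.2% of all genes were higher and 19.0% lower. The counts were the same in K562/IM (30.1% and 27.1% of all genes). In the labelled group against K562/IM 3 were higher and 4 lower (33.2% and 33.6% of all genes). TNFRSF10B, the death receptor DR5, stood at 20.5 ± 1.86 CPM in K562, 15.8 ± 2.05 in K562+L, 56.1 ± 0.664 in K562/IM and 3.03 ± 0.471 in the labelled group (SD, n = 3 each). PMAIP1 (NOXA), a BH3-only protein, was higher in K562+L (0.64) and lower in the labelled group than in K562/IM (-0.88). BCL2L11 (BIM), of the same class, was lower in K562+L (-0.46) and higher in the labelled group than in K562/IM (1.33). WARS1 and SLC3A2 stand in both target lists. Chaperones and other genes under ATF6 and XBP1, the remaining arms of the unfolded protein response, had 9 of 16 lower and 0 higher in K562+L (median -0.61), 10 lower and 1 higher in K562/IM (median -0.43), and 10 higher and 2 lower in the labelled group against K562/IM (median 0.26). The other counts of 0 given for these lists, by edgeR, were also 0 at an unadjusted p under 0.05 and 0 by DESeq2. HSPA5 (BiP), the main chaperone of the endoplasmic reticulum, fell from 786 ± 24.5 CPM in K562 to 367 ± 14.2 in K562+L (SD, n = 3 each).

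Close relatives of the regulators took another course in part and a like course in part. TRIB1, a paralog of TRIB3, was higher against K562, where TRIB3 was lower, with log2 fold changes of 0.92 in K562+L (adjusted p = 0.00231) and 1.20 in K562/IM (adjusted p = 1.62e-04). In the labelled group both genes were lower than in K562, with TRIB1 at -0.85 (adjusted p = 0.00202), and TRIB1 was -2.01 against K562/IM (adjusted p = 1.14e-06). SESN3, a paralog of SESN2, was near 0 in K562 (0.522 ± 0.218 CPM) and K562+L (0.654 ± 0.133), and stood at 54.1 ± 3.89 in K562/IM and 4.22 ± 1.05 in the labelled group (SD, n = 3 each). TRIB2, like TRIB3, was lower than in K562 in K562+L (-0.41), K562/IM (-1.28) and the labelled group (-0.77). Unlike TRIB3, it was higher in the labelled group than in K562/IM (0.56). SESN1 fell in K562+L (-0.64) and rose in K562/IM against K562 (0.65), as SESN2 did. CHAC2, a paralog of CHAC1, was higher in K562+L (0.43), where CHAC1 was lower. Of all 6 paralogs, 2 were higher and 2 lower in K562+L, 4 and 2 in K562/IM, and 1 and 4 in the labelled group against K562/IM. Among 14 tested C/EBP and ATF relatives, 2 were higher and 2 lower in K562+L, 5 and 0 in K562/IM (2 lower at an unadjusted p under 0.05 and 2 by DESeq2), and 4 and 7 in the labelled group against K562/IM. Of all genes, 18.2% were higher and 19.0% lower in K562+L, and 30.1% and 27.1% in K562/IM. In the labelled group against K562/IM the shares were 33.2% and 33.6%. Of these relatives JDP2, a repressor that is also listed as an ATF4 target, had the steepest change in K562+L (-3.41, SE 0.276, adjusted p = 2.16e-04) and BATF3 in the labelled group against K562/IM (-3.53, SE 0.376, adjusted p = 1.27e-04). A list of mTORC1 inhibitors had 1 of 6 higher and 2 lower in K562+L, and 4 of 6 higher and 0 lower in K562/IM. In the labelled group against K562/IM it had 4 of 7 higher and 1 lower. Against K562, 7 of 7 were higher in the labelled group, where 28.2% of all genes were. Among these 7, DEPTOR (0.0650 CPM) and SESN3 (0.522 CPM) were near 0 in K562. How far the listed inhibitors depend on the stress response was not tested. The medians were -0.29 in K562+L (against -0.00 over all genes), 0.56 in K562/IM (against 0.04), and in the labelled group 0.49 against K562/IM (-0.01 over all genes) and 1.36 against K562 (0.02 over all genes).

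Genes with a course over the groups like that of a regulator were sought among 11657 genes with a mean of at least 1 CPM, by the root-mean-square difference of the centred log2 means of the 4 groups. Nearest to ATF4 were MACROD1 (0.0131), LIN7B (0.0246) and NMRAL1 (0.0280). The closest to DDIT3 were ZNF813 (0.0397), SNX29 (0.0463) and UBN2 (0.0555), and to TRIB3 CHCHD10 (0.0567), SLC25A10 (0.0667) and FGFR4 (0.0668), all on the log2 scale. With only 4 group means, this likeness is a description, and none of the 9 genes stands in the lists above.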

How the data were processed

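RNA of 12 libraries, 3 per group, was grouped by the line and treatment in the sample labels. The authors deposited whole-number counts per gene symbol and library, without normalization. The submitters' processing notes name FastQC, STAR, StringTie and DESeq2 with hg38, without roles or versions, and the annotation and strand setting were not given in the sources used here. Computation used R 4.3.3, edgeR 4.0.16, limma 3.58.1 and DESeq2 1.42.0. Each of 4 pairwise comparisons took its 6 libraries, filterByExpr (minimum count 10), TMM and the quasi-likelihood test of edgeR, with p adjusted over all genes tested (Benjamini-Hochberg) and calls made under 0.05. The difference of the lycorine effects was an interaction over 12 libraries. Positions and exon lengths came from GENCODE 29 for 19029 symbols. The members and gene lists were chosen with earlier results of these data known. The genes named are the 10 members, in each list and comparison up to 3 genes of smallest p per direction among those called, the 4 kinases, the 3 genes most alike to ATF4, DDIT3 and TRIB3, and ABCB1; others are named for context, after their values were seen. 1 marker listed for the check of cell identity is not reported here and was left out of the marker sum. Steps were tested on simulated counts in which 200 genes were changed. Far more genes were called in the data, so that the simulation does not cover changes as common as these. Alternatives covered the test, scaling, filter, counts divided by 4, a replicate block, 1 fit over all libraries, a fold threshold and each library left out. An exact test of 3 against 3 libraries cannot pass 0.05, and groups of 3 were not tested for outlying libraries.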

Additional observations from a re-analysis of the deposited data

Results flagged for a closer look

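Lycorine had unequal effects in the lines on 8 of the 10 regulators, by the interaction of edgeR's quasi-likelihood test over 12 libraries (5 more positive and 3 more negative, where 29.9% of 13995 genes were more positive and 31.7% more negative). The difference, labelled K562/IM+L over K562/IM minus K562+L over K562, was 1.16 on the log2 scale for ATF4 (adjusted p = 7.47e-06), 1.32 for ATF5 (adjusted p = 9.70e-07), 0.92 for TRIB3 (adjusted p = 3.82e-04), 4.74 for CHAC1 (adjusted p = 9.96e-08) and 0.69 for SESN2 (adjusted p = 8.40e-04). It was -0.80 for DDIT3 (adjusted p = 0.00313), -0.91 for ATF3 (adjusted p = 5.83e-05) and -0.66 for PPP1R15A (adjusted p = 0.00157). Each of the 8 kept its direction and its call in the 20 alternative fits, but with an absolute log2 fold change over 1 added, 3 of them (ATF4, ATF5 and CHAC1) stayed called and the other 5 did not. These values rest on the label of the K562/IM+L group, whose summed erythroid marker level was 32051 to 45210.3 CPM against 2803 to 3043 in K562/IM, and the part of that in the differences was not tested.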

How the results depend on the processing

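Of 800 alternative log2 fold changes of the regulators, 771 kept their direction and side of the threshold, 20 gained a call, 9 lost one and 0 of the called values reversed. With an absolute log2 fold change over 1 added, the higher and lower regulators were 2 and 2 in K562+L (308 and 518 of 12927 genes), 1 and 1 in K562/IM (1857 and 709 of 13406), 1 and 0 in the labelled group against K562/IM (2022 and 1895 of 13727), 2 and 1 against K562 (1977 and 1185 of 13307), and 3 and 0 for the difference of the lycorine effects (2445 and 2275 of 13995). The ATF4 target genes higher and lower at that threshold were 0 and 11 in K562+L, 1 and 2 in K562/IM, 2 and 4 in the labelled group against K562/IM, 2 and 9 against K562, and 8 and 2 for the difference. For the labelled group against K562, where several regulators lay near the threshold, DESeq2 gave 2 lower regulators, upper-quartile factors gave 6 higher, and 1 fit over all 12 libraries gave 5 higher and 3 lower. Upper-quartile factors moved the median of all genes there from 0.02 to 0.17 and the calls from 3753 higher and 3693 lower to 4564 and 2883. Leaving out 1 library gave 2 to 5 lower regulators in K562/IM (5 without K562 replicate 1), and 3 to 5 higher (5 without labelled K562/IM+L replicate 3) and 1 to 2 lower (2 without K562 replicate 3) in the labelled group against K562. It gave 7 to 14 higher ATF4 targets in the labelled group against K562/IM. In K562+L the background calls, 2359 higher and 2462 lower, were 1327 and 1544 without K562 replicate 2, 1390 and 1581 without K562+L replicate 1, and 1439 and 1619 without K562+L replicate 3. Replicate numbers are shared by the groups, but deviations of same-numbered libraries correlated at -0.569 to 0.163, so that the numbers were not taken as pairs. Those of differently numbered libraries correlated at -0.457 to 0.571, the highest being labelled K562/IM+L replicate 3 with K562 replicate 1. The source of these correlations was not tested. With the replicate block the K562+L calls were 1488 and 1638, ATF5 in K562+L had an adjusted p of 0.0704 (log2 fold change -0.34), and no other call of a regulator changed. The cause of these changes was not tested. Depth limits CHAC1 in K562+L, with counts of 40 to 88.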
